A study of Mus musculus with 15 samples.

Results

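The mitochondrial carriers of the SLC25 family are small membrane proteins that move metabolites, nucleotides, cofactors and ions across the inner membrane of the mitochondrion. The family was taken here as every gene whose single annotated symbol begins with Slc25a, together with the uncoupling proteins Ucp1, Ucp2 and Ucp3 and the outer membrane homologues Mtch1 and Mtch2. Described here are 50 such genes with a probe set of their own on the array, out of 18820 genes measured in all. Ucp2 was not analysed here. The rule picks genes by symbol and keeps for each gene the probe set with the highest mean over all 15 arrays.

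The study asked what gene programmes each splice isoform of FXR, the bile acid receptor encoded by Nr1h4, controls in liver cells. Primary hepatocytes from the livers of male C57BL/6J mice, whose age is not given in the sources used here, were transduced overnight with 1 of 5 adenoviruses, each represented by 3 arrays (15 in all). FXRα1, FXRα2, FXRα3 and FXRα4 cells received a virus for that human isoform, and the virus also expressed GFP from an independent CMV promoter. Control cells received a virus for GFP alone. All groups spent the last 24 h in medium without the dexamethasone and insulin present before, and RNA extraction followed at 36 h from transduction. The isoforms differ by a short insert of amino acids beside the DNA-binding domain, which FXRα1 and FXRα3 carry and FXRα2 and FXRα4 lack, and by the N-terminus, which is longer in FXRα3 and FXRα4. The receptors were human and were supplied by virus to mouse cells whose labels give no change to their own Nr1h4, and no added FXR ligand is listed in the labels.

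Each SLC25 carrier is built from repeated pairs of membrane helices and usually exchanges one solute for another. In hepatocytes the family links the matrix with the cytosol for the urea cycle, for citrate export to lipid synthesis, for dicarboxylates used in gluconeogenesis, for the malate-aspartate shuttle, for acylcarnitine entry to fatty acid oxidation and for the trade of ADP, ATP and phosphate. FXR binds DNA mainly with its partner RXR and is known in liver for control of bile acid, lipid and glucose genes.

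Values are log2 array values per gene, and a difference of 1 on this scale is a 2-fold difference. The median array value lay between 4.92 and 5.01, and 10 of the 50 carriers lay below the lowest array median in their mean over all arrays. Arrays of a group correlated with each other at r = 0.997 to 0.999 over genes, and arrays of different groups at r = 0.985 to 0.998. A gene is said to have risen, fallen or changed where limma gave a two-sided adjusted p under 0.05 over all 18820 genes. Nothing in the labels ties the 3 arrays of a group to different mice or wells, and a p-value here covers array-to-array spread that may be technical. The 4 comparisons with GFP share the same 3 GFP arrays.

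The hepatocyte label was checked against marker genes. The mean log2 value of 9 measured hepatocyte markers of 12 listed lay between 10.76 and 10.77 on the GFP arrays and between 10.96 and 11.14 on the isoform arrays. Of the 9 hepatocyte markers, 8 rose with FXRα4, 8 with FXRα3, 7 with FXRα2 and 2 with FXRα1. Of all genes 18%, 7.45%, 17.5% and 8.42% rose in that order. Hnf4a gave 1.54 ± 0.053 (SE, adjusted p = 1.11e-15) with FXRα2. An alternative chosen after seeing the data centred each array on its median gene. The marker rises then numbered 4, 6, 1 and 1 with FXRα4, FXRα3, FXRα2 and FXRα1, with 1 fall each with FXRα2 and FXRα4. All 18820 genes then gave 1927, 1220, 1889 and 1005 rises and 9860, 1838, 11273 and 2070 falls in the same order. All 7 measured lymphocyte and neutrophil markers, 9 of 10 Kupffer cell markers, 7 of 10 stellate cell or fibroblast markers and 2 of 3 measured erythroid markers lay below the array median in every group. Sinusoidal endothelial markers stood nearer the median, with 3 to 5 of 9 below it and a mean of 4.79 to 5.09 over all arrays. The 6 measured cholangiocyte markers had a mean of 5.48 to 5.55 with GFP, 5.88 to 5.90 with FXRα1, 6.11 to 6.23 with FXRα2, 5.96 to 6.04 with FXRα3 and 6.24 to 6.36 with FXRα4, with 3 of the 6 below the array median. Epcam rose with FXRα2 by 4.95 ± 0.098 (SE, adjusted p = 2.68e-19), while Krt19 fell by 1.82 in the same comparison, and without Epcam the mean of the other 5 was 5.56 to 5.64 with GFP, 5.92 to 5.94 with FXRα1, 5.37 to 5.44 with FXRα2, 6.03 to 6.08 with FXRα3 and 5.56 to 5.67 with FXRα4. Of the 6, 3 rose with FXRα1 and 3 with FXRα3, and 2 rose and 1 fell with FXRα2 and with FXRα4, where the list medians were -0.0043 and -0.030. Of all genes 16.7% fell with FXRα2 and 15.7% with FXRα4, beside the shares that rose given above. The part of these cell type differences in the carrier results was not tested. In a lysate of a whole culture, fewer cells of a type and less RNA per cell cannot be told apart.

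The family did not move as a block. With FXRα2, 16 carriers rose and 9 fell, 50% of the family, where 34.3% of all genes were called (17.5% rose and 16.7% fell). With FXRα4, 11 rose and 12 fell, 46% beside 33.8% of all genes (18% rose and 15.7% fell). The counts were lower with the isoforms that carry the insert. With FXRα1, 7 rose and 4 fell (22%, beside 12.4% of all genes, 8.42% up and 4% down), and with FXRα3, 8 rose and 10 fell (36%, beside 14.1% of all genes, 7.45% up and 6.62% down). The median change of the 50 carriers against GFP was 0.0086, 0.065, -0.016 and -0.051 on the log2 scale with FXRα1, FXRα2, FXRα3 and FXRα4, beside 0.0035, -0.048, -0.0026 and -0.027 over all genes.

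The shares depended on the genes they were set beside. With the genes of below-median level left out, 38 carriers remained, and 31.6%, 52.6%, 47.4% and 57.9% of them were called with FXRα1, FXRα2, FXRα3 and FXRα4. The same shares over the 9410 brighter genes were 25.7%, 59.1%, 29.5% and 58.2%. The family's share therefore stayed above that of all genes with FXRα1 and FXRα3 and did not with FXRα2 and FXRα4. Centring each array on its median over genes lowered the median change of all genes by 0.22 with FXRα2 and by 0.21 with FXRα4. It lowers every carrier of a comparison by that same amount. The median change over all genes then stood at -0.269 with FXRα2 and -0.239 with FXRα4, further below no change than as deposited. The split of carriers then became 8 up and 25 down with FXRα2 and 7 up and 32 down with FXRα4. With FXRα1 it became 7 up and 8 down, and with FXRα3 6 up and 13 down. Most called genes fell over the whole array too, with 1889 up and 11273 down with FXRα2 and 1927 up and 9860 down with FXRα4. All genes gave 1005 up and 2070 down with FXRα1, and 1220 up and 1838 down with FXRα3. The carriers' falls under this centring are therefore not particular to the family. Centring over all probe sets gave 8 carriers up and 19 down with FXRα4, beside 2854 up and 3741 down over all genes.

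**Figure D1:**
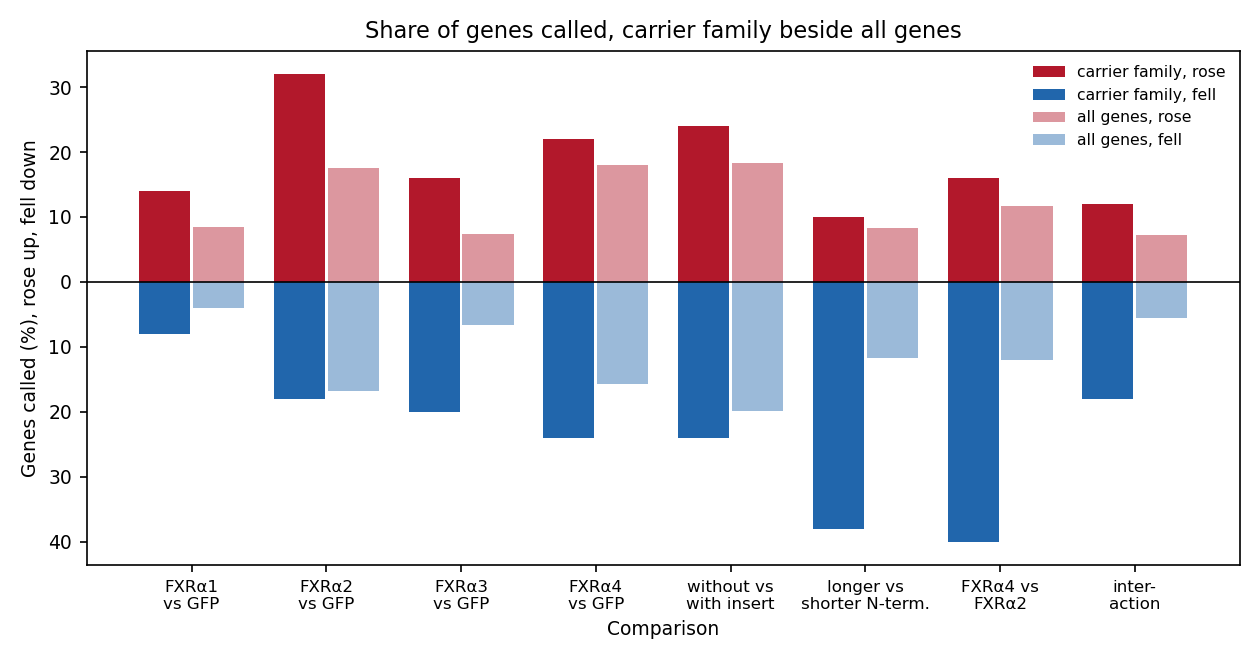
Bars give the percentage of genes called in each of the 8 comparisons, with genes that rose above the line and genes that fell below it, for the 50 carriers beside all 18820 genes. The carriers' falls exceed their rises in the comparison of the longer with the shorter N-terminus, 19 against 5, and of FXRα4 with FXRα2, 20 against 8.

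Over the 4 comparisons, 35 carriers were called with at least 1 isoform and 15 with none, where 47.8% of all genes were called with at least 1 and 52.2% with none. Slc25a10, Slc25a17 and Slc25a48 rose with all 4 isoforms, a pattern met by 2.85% of all genes, and Slc25a12 and Slc25a46 fell with all 4, a pattern met by 1.67% of all genes, though a second probe set of Slc25a46 did not follow (given with that gene). FXRα2 and FXRα4 both changed 15 of the 50 carriers, 13 in the same direction, beside 22.2% of all genes, and 2, Slc25a13 and Slc25a43, in opposite directions, beside 1.03%. A further 10 carriers were called with FXRα2 of these isoforms and not with FXRα4 (11% of all genes), and 8 with FXRα4 and not with FXRα2 (10.5%). These comparisons share the GFP arrays, and nothing is read from the shared direction. The 15 carriers called with no isoform included Ucp1, Ucp3, Slc25a3 and Slc25a5, and their largest change in either direction was 0.30 on the log2 scale.

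**Figure D2:**
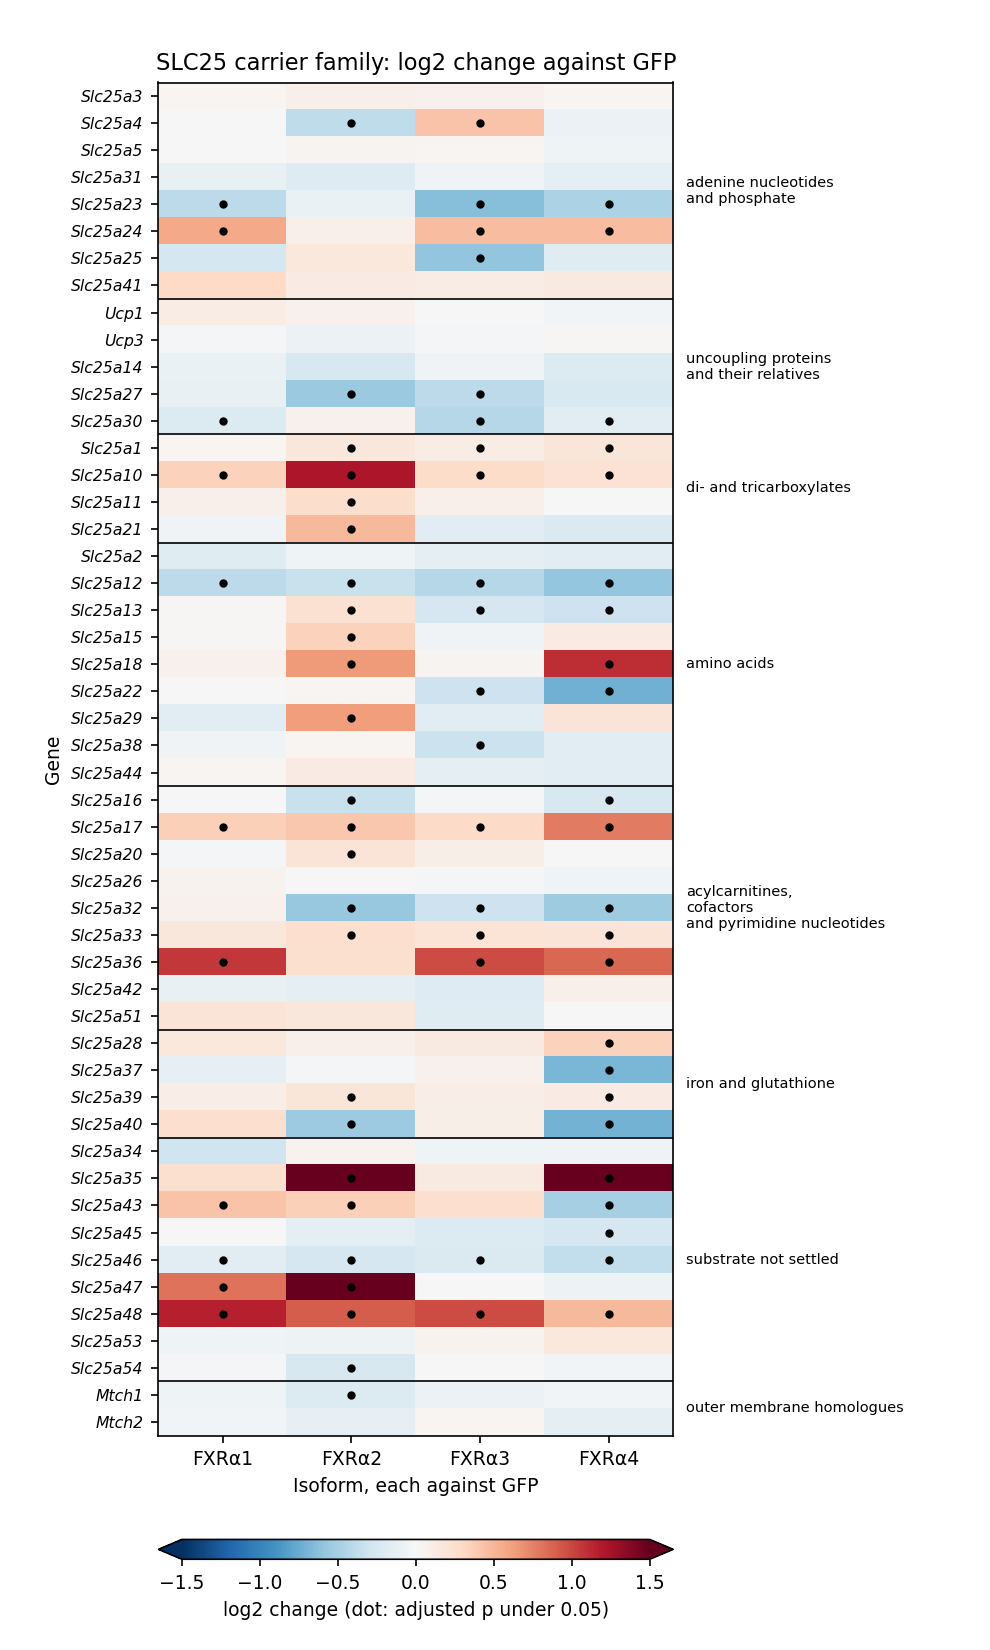
Each row is 1 of the 50 carriers, grouped by substrate, and each column is 1 isoform against GFP. Colour gives the log2 change, capped at 1.5 in either direction, and a dot marks an adjusted p under 0.05. The strongest rises belong to Slc25a35 with FXRα2 and FXRα4 and to Slc25a47 with FXRα2.

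The 4 di- and tricarboxylate carriers rose with FXRα2, although Slc25a1 turned to -0.048 with centring on the median gene. Slc25a10, the dicarboxylate carrier that exchanges malate or succinate for phosphate, rose most of the 4. Slc25a10 read 7.71, 7.67 and 7.81 with GFP, 8.11, 7.89 and 8.24 with FXRα1, and 8.96, 8.93 and 8.95 with FXRα2. It read 7.95, 7.94 and 8.13 with FXRα3, and 7.996, 7.87 and 7.97 with FXRα4. The FXRα2 arrays stood above all others, the remaining isoforms lay close together, and no isoform array overlapped the GFP arrays. Its log2 change was 1.22 ± 0.079 (SE, adjusted p = 3.21e-11) with FXRα2, or 2.33-fold, and 0.35 ± 0.079 (SE, adjusted p = 0.00365) with FXRα1. The smaller rises of 0.28 with FXRα3 and 0.22 with FXRα4 rested on single arrays: with FXRα3 the call was lost without FXRα3 replicate 3 (0.21), GFP replicate 1 (0.27) or GFP replicate 2 (0.25), and with FXRα4 without FXRα4 replicate 1 (0.19) or 3 (0.20), GFP replicate 1 (0.21) or 2 (0.19). Centring on the median gene lowered the FXRα4 value to 0.0035.

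Slc25a21, the oxoadipate carrier used in the breakdown of lysine and tryptophan, was dim throughout. Slc25a21 read 4.42, 4.45 and 4.34 with GFP, 4.32, 4.37 and 4.35 with FXRα1, 4.92, 4.84 and 4.91 with FXRα2, 4.19, 4.24 and 4.27 with FXRα3, and 4.26, 4.09 and 4.19 with FXRα4. It was higher with FXRα2 than in every other group, by 0.49 ± 0.090 (SE, adjusted p = 0.000154) against GFP, and FXRα3 and FXRα4 lay below GFP without passing the test. Adding 16 to the linear values reduced that rise to 0.30.

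Slc25a11 exchanges oxoglutarate for malate in the malate-aspartate shuttle. Slc25a11 read 10.07, 10.16 and 10.14 with GFP, 10.16, 10.18 and 10.26 with FXRα1, 10.36, 10.41 and 10.38 with FXRα2, 10.18, 10.20 and 10.23 with FXRα3, and 10.10, 10.10 and 10.20 with FXRα4. The FXRα2 arrays were the highest, and only FXRα1 and FXRα4 overlapped GFP. The rise with FXRα2 was 0.26 ± 0.045 (SE, adjusted p = 5.94e-05), which fell to 0.040 with centring on the median gene.

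Slc25a1, which exports citrate for cytosolic acetyl-CoA, lay far above the array median. Slc25a1 read 11.21, 11.23 and 11.19 with GFP, 11.24, 11.22 and 11.25 with FXRα1, 11.40, 11.35 and 11.40 with FXRα2, 11.35, 11.31 and 11.29 with FXRα3, and 11.45, 11.37 and 11.36 with FXRα4. Its groups lay within 0.3 log2 units of each other, and it rose by 0.17 (adjusted p = 0.000442) with FXRα2 and 0.18 (adjusted p = 0.000216) with FXRα4. Both directions turned with centring on the median gene, to -0.048 and -0.027. With FXRα3 the rise of 0.11 lost its call when any of 9 arrays was left out (0.092 to 0.12), namely FXRα2 replicate 1 or 2, FXRα4 replicate 3, or any FXRα3 or GFP replicate.

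The largest changes in the family belonged to carriers whose substrate is not settled. Slc25a35, a relative of the yeast oxaloacetate carrier, read 4.39, 4.65 and 4.64 with GFP, 4.74, 4.88 and 4.77 with FXRα1, and 7.53, 7.58 and 7.82 with FXRα2. It read 4.78, 4.57 and 4.73 with FXRα3, and 6.93, 6.89 and 7.34 with FXRα4. With GFP it lay below the array median, and the arrays of both isoforms without the insert stood well above every other array. The log2 change was 3.08 ± 0.12 (SE, adjusted p = 1.65e-14) with FXRα2 and 2.49 ± 0.12 (SE, adjusted p = 6.85e-13) with FXRα4. No fold is given, since nothing in the files shows the GFP level to be above background. FXRα1 and FXRα3 gave 0.24 (adjusted p = 0.274) and 0.13 (adjusted p = 0.642).

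Slc25a47, a carrier made mainly in liver, rose with both isoforms of the shorter N-terminus. Slc25a47 read 6.65, 6.48 and 6.50 with GFP, 7.49, 7.06 and 7.55 with FXRα1, and 8.61, 8.48 and 8.50 with FXRα2. It read 6.70, 6.51 and 6.46 with FXRα3, and 6.81, 6.29 and 6.33 with FXRα4. The FXRα2 arrays were the highest, FXRα1 stood between them and GFP, and FXRα3 and FXRα4 overlapped GFP. The change was 1.99 ± 0.13 (SE, adjusted p = 2.72e-11) with FXRα2, or 3.96-fold, and 0.82 ± 0.13 (SE, adjusted p = 6.89e-05) with FXRα1. FXRα3 and FXRα4 gave 0.0074 (adjusted p = 0.988) and -0.072 (adjusted p = 0.731).

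The 250 bases before a RefSeq start of Slc25a47 and of Slc25a10, both highest with FXRα2, are shown on build GRCm38.p6. They are read on the plus strand 5′ to 3′ at chr12:108850879-108851128 and chr11:120491587-120491836. Capitals mark the hexamer AGGTCA, the unit that nuclear receptors bind, which reads TGACCT on the other strand. The Slc25a10 window ends where the annotated gene begins. The start used for Slc25a47 lies 1296 bases inside the annotated gene, which begins at 108849833 on the plus strand, so that window is not upstream of the whole gene.
Slc25a47: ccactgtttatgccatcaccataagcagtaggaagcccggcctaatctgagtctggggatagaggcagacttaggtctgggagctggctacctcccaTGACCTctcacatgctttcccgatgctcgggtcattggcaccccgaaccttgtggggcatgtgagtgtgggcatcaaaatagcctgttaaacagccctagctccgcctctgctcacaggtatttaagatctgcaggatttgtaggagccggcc
Slc25a10: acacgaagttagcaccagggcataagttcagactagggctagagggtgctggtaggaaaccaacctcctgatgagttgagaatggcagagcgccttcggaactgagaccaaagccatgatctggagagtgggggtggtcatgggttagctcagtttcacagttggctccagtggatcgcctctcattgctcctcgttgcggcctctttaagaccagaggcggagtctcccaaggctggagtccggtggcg

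The Slc25a47 window held 1 such hexamer and the Slc25a10 window held 0. Such windows could be matched for 40 of the 50 carriers, with 51 windows in all because some genes have several starts. No window was matched for Slc25a35, the carrier with the largest changes. The hexamer stood in 7 of the 51 windows (13.7%), and in 4607 of all 32851 windows. An inverted repeat of the hexamer with 1 base between (AGGTCANTGACCT, both strands, up to 2 mismatches), the element best known for FXR, stood in 0 of the 51 and in 0.959% of all windows. An everted repeat with 2 bases between (TGACCTNNAGGTCA, both strands, up to 2 mismatches), described as background for isoforms without the insert, stood in 2 of the 51 (3.92%) and in 1.23% of all. These 2 matches overlap no complete hexamer and are printed with the motif's matching letters in capitals, each read 5′ to 3′ on the minus strand of GRCm38.p6.
Slc25a15 match, chr8:22398744-22398757, 136 bases before a RefSeq start: aGACCTcaAGGTgA
Slc25a22 match, chr7:141438062-141438075, 201 bases before a RefSeq start: TGAaCTcggGGTCA
A match is a description of letters and not a bound site, and a window without one says only that these letters are not in these 250 bases.

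Slc25a48 rose with every isoform. Slc25a48 read 4.90, 5.10 and 5.002 with GFP, 6.40, 5.80 and 6.32 with FXRα1, and 5.79, 5.85 and 6.08 with FXRα2. It read 5.86, 5.98 and 6.09 with FXRα3, and 5.42, 5.61 and 5.44 with FXRα4. No isoform array overlapped the GFP arrays, and FXRα4 was the lowest of the isoform groups. The change was 1.17 ± 0.13 (SE, adjusted p = 1.26e-06) with FXRα1, 0.98 ± 0.13 (SE, adjusted p = 1.44e-05) with FXRα3, 0.91 ± 0.13 (SE, adjusted p = 9.14e-06) with FXRα2 and 0.49 ± 0.13 (SE, adjusted p = 0.00545) with FXRα4.

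Slc25a43 moved in opposite directions with the isoforms that lack the insert. Slc25a43 read 6.31, 6.26 and 6.22 with GFP, 6.85, 6.47 and 6.75 with FXRα1, 6.58, 6.57 and 6.73 with FXRα2, 6.54, 6.49 and 6.53 with FXRα3, and 5.78, 5.75 and 5.76 with FXRα4. The FXRα4 arrays lay below GFP and all other isoform arrays lay above it. It rose by 0.43 (adjusted p = 0.00333) with FXRα1 and 0.36 (adjusted p = 0.00439) with FXRα2 and fell by 0.49 with FXRα4 (adjusted p = 0.000237). The rise with FXRα2 dropped to 0.14 and lost its call with centring on the median gene.

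Slc25a46, an outer membrane protein tied to mitochondrial fission, fell by 0.18, 0.25, 0.22 and 0.37 with FXRα1, FXRα2, FXRα3 and FXRα4. The FXRα1 fall lost its call without FXRα1 replicate 1 (-0.15) or GFP replicate 1 (-0.16), and a second, dimmer probe set of Slc25a46 disagreed. It gave -0.085, 0.18, -0.061 and 0.29 with FXRα1 to FXRα4 in that order, none called, so that with FXRα2 and FXRα4 the directions were opposite. For isoforms without the insert against those with it, both were called in opposite directions in a fit of every probe set, -0.11 (adjusted p = 0.011) by the probe set used and 0.31 (adjusted p = 0.00782) by the second. Slc25a45 changed by -0.26 (adjusted p = 0.0147) with FXRα4, a call lost without GFP replicate 1 or 2 (-0.24 each). Slc25a54, far below the array median, changed by -0.24 (adjusted p = 0.0236) with FXRα2, a call lost without FXRα2 replicate 3 (-0.21) or GFP replicate 1 (-0.18), and it read -0.079 with 16 added to the linear values. Slc25a34 and Slc25a53 were not called with any isoform.

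**Figure D3:**
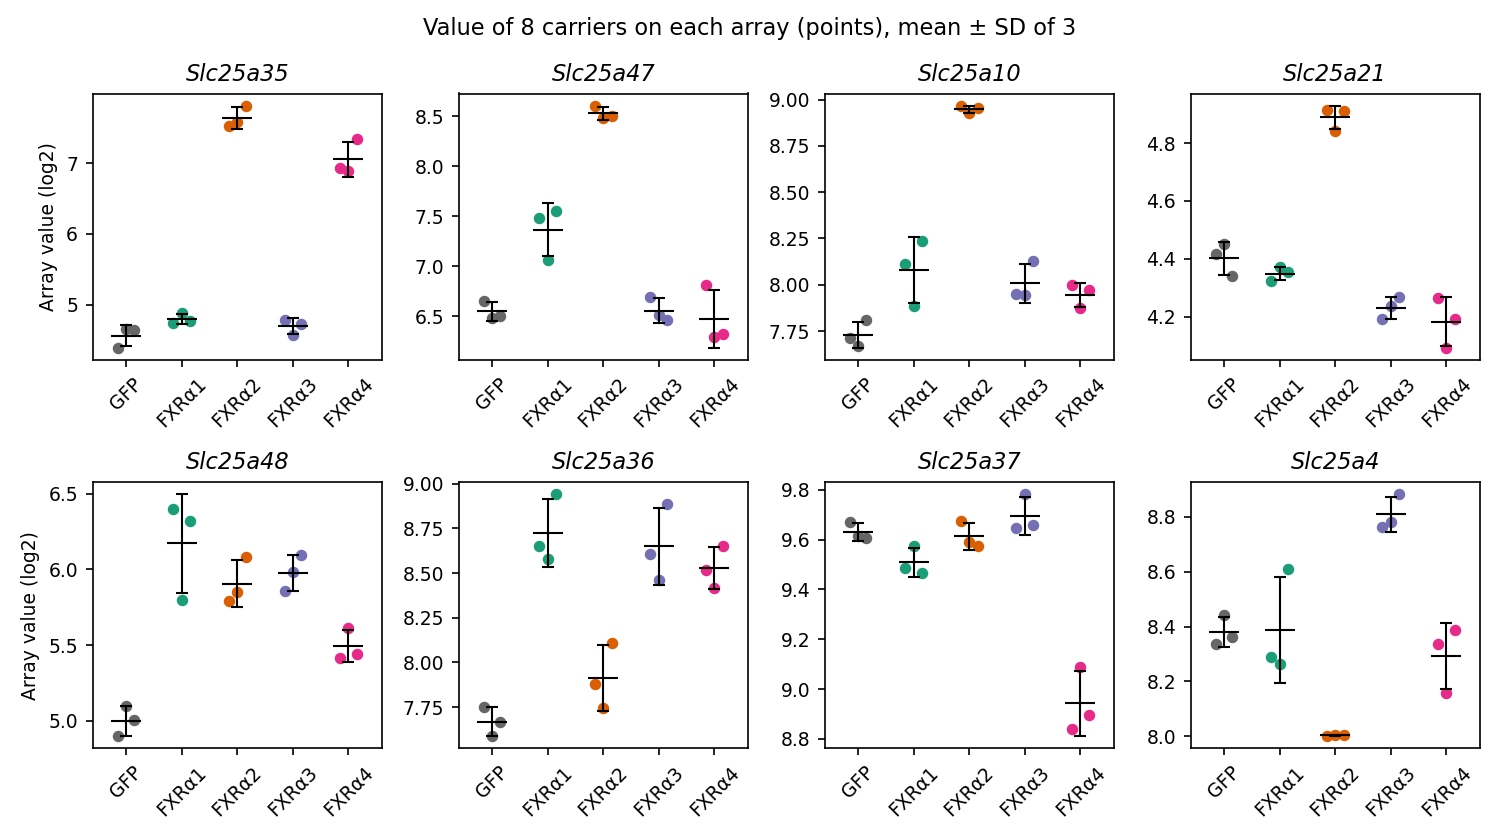
Points are the log2 values of 8 carriers on each of the 15 arrays, by group, with bars for the mean ± SD of 3 arrays. Slc25a35 reaches 6.89 or more on the FXRα2 and FXRα4 arrays alone, Slc25a47 is highest with FXRα2, and Slc25a37 is lowest with FXRα4.

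Of 9 amino acid carriers, 4 rose and 1 fell with FXRα2 (55.6% called, beside 34.3% of all genes), and 1 rose and 3 fell with FXRα4 (44.4% beside 33.8%). With FXRα3 4 fell (44.4% beside 14.1%), and with FXRα1 1 fell (11.1% beside 12.4%). Over the 9410 brighter genes the shares called were 59.1%, 58.2%, 29.5% and 25.7% with FXRα2, FXRα4, FXRα3 and FXRα1. Slc25a13, or citrin, is the liver form of the exchanger that sends aspartate out of the matrix for glutamate. Slc25a13 read 8.81, 8.76 and 8.80 with GFP, 8.78, 8.74 and 8.91 with FXRα1, 9.03, 8.99 and 9.06 with FXRα2, 8.50, 8.51 and 8.60 with FXRα3, and 8.54, 8.38 and 8.54 with FXRα4. FXRα2 lay above GFP, FXRα3 and FXRα4 lay below it, and FXRα1 overlapped it. The change was 0.23 ± 0.060 (SE, adjusted p = 0.00374) with FXRα2, -0.26 ± 0.060 (SE, adjusted p = 0.00455) with FXRα3 and -0.31 ± 0.060 (SE, adjusted p = 0.00027) with FXRα4. The FXRα2 rise shrank to 0.012 with centring on the median gene.

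Slc25a12, the second aspartate-glutamate exchanger, was lower with all isoforms. Slc25a12 read 9.21, 9.15 and 9.16 with GFP, 8.76, 8.71 and 8.88 with FXRα1, 8.88, 8.78 and 8.85 with FXRα2, 8.80, 8.68 and 8.75 with FXRα3, and 8.61, 8.53 and 8.62 with FXRα4. Every isoform array lay below every GFP array, with FXRα4 lowest. It fell by 0.39, 0.34, 0.43 and 0.58 with FXRα1 to FXRα4 in that order, with adjusted p from 2.87e-08 for FXRα4 to 5.94e-05 for FXRα2.

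Slc25a15 exchanges ornithine for citrulline in the urea cycle. Slc25a15 read 8.30, 8.29 and 8.29 with GFP, 8.37, 8.17 and 8.41 with FXRα1, 8.66, 8.58 and 8.68 with FXRα2, 8.23, 8.15 and 8.33 with FXRα3, and 8.53, 8.32 and 8.41 with FXRα4. The FXRα2 arrays were the highest and the GFP arrays nearly identical. It rose by 0.35 ± 0.071 (SE, adjusted p = 0.000433) with FXRα2. FXRα4 gave 0.12 (adjusted p = 0.208), not called. Centring on the median gene left 0.13 with FXRα2, not called. Slc25a2, the other ornithine carrier, was dim and not called.

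Both glutamate carriers moved, in different directions. Slc25a18 read 4.65, 4.99 and 4.53 with GFP, 4.79, 4.86 and 4.72 with FXRα1, 5.14, 5.47 and 5.45 with FXRα2, 4.62, 5.03 and 4.64 with FXRα3, and 5.51, 5.77 and 6.21 with FXRα4. Its FXRα2 and FXRα4 arrays stood above all others, and FXRα1 and FXRα3 overlapped GFP. It rose by 0.63 ± 0.16 (SE, adjusted p = 0.00286) with FXRα2 and 1.11 ± 0.16 (SE, adjusted p = 6e-06) with FXRα4, from a GFP level below the array median.

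Slc25a22, the other glutamate carrier, read 7.17, 7.40 and 7.29 with GFP, 7.15, 7.21 and 7.52 with FXRα1, 7.27, 7.35 and 7.32 with FXRα2, 6.97, 7.01 and 6.96 with FXRα3, and 6.64, 6.59 and 6.46 with FXRα4. The FXRα4 arrays were the lowest, followed by FXRα3, while FXRα1 and FXRα2 overlapped GFP. It changed by -0.72 ± 0.093 (SE, adjusted p = 1.67e-06) with FXRα4. The FXRα3 change of -0.31 lost its call when any of 5 arrays was left out (-0.32 to -0.25), namely any FXRα3 replicate or GFP replicate 2 or 3.

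Slc25a29 carries basic amino acids. Slc25a29 read 4.61, 4.82 and 4.74 with GFP, 4.50, 4.66 and 4.49 with FXRα1, 5.17, 5.49 and 5.37 with FXRα2, 4.73, 4.71 and 4.23 with FXRα3, and 4.68, 5.08 and 4.97 with FXRα4. The FXRα2 arrays stood above every other array, and the remaining isoforms overlapped GFP. The rise with FXRα2 was 0.62 ± 0.14 (SE, adjusted p = 0.000843) for a gene near the array median. Slc25a38, which supplies glycine for haem synthesis, fell with FXRα3 by 0.33 (adjusted p = 0.00233), and Slc25a44, a carrier of branched-chain amino acids, was not called with any isoform.

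Among the carriers of adenine nucleotides and phosphate, those that serve oxidative phosphorylation in liver moved little. Slc25a5, an ADP/ATP exchanger, read 12.71, 12.69 and 12.65 with GFP, 12.64, 12.70 and 12.69 with FXRα1, 12.70, 12.76 and 12.71 with FXRα2, 12.69, 12.72 and 12.72 with FXRα3, and 12.62, 12.67 and 12.58 with FXRα4. All isoform groups overlapped GFP, and its changes ran from -0.059 with FXRα4 to 0.040 with FXRα2, none called. Slc25a3, the phosphate carrier of oxidative phosphorylation, gave changes of 0.026 to 0.079, none called.

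Slc25a4, another ADP/ATP exchanger that is less abundant in liver, did move. Slc25a4 read 8.34, 8.44 and 8.36 with GFP, 8.29, 8.26 and 8.61 with FXRα1, 8.001, 8.01 and 8.01 with FXRα2, 8.76, 8.78 and 8.88 with FXRα3, and 8.34, 8.16 and 8.39 with FXRα4. FXRα3 lay above GFP and FXRα2 below it, while FXRα1 and FXRα4 overlapped it. The change was 0.43 ± 0.079 (SE, adjusted p = 0.000477) with FXRα3 and -0.38 ± 0.079 (SE, adjusted p = 0.000586) with FXRα2.

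The exchangers of ATP-magnesium for phosphate, which set the size of the matrix nucleotide pool, moved apart. Slc25a24 read 10.34, 10.37 and 10.36 with GFP, 10.80, 11.01 and 10.97 with FXRα1, 10.40, 10.43 and 10.48 with FXRα2, 10.75, 10.86 and 10.86 with FXRα3, and 10.73, 10.86 and 10.88 with FXRα4. FXRα1, FXRα3 and FXRα4 stood well above GFP and FXRα2 just above it. It rose by 0.57 ± 0.052 (SE, adjusted p = 6.05e-08) with FXRα1, 0.46 ± 0.052 (SE, adjusted p = 1.18e-06) with FXRα3 and 0.46 ± 0.052 (SE, adjusted p = 2.58e-07) with FXRα4.

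Slc25a23, of the same type, read 7.45, 7.54 and 7.53 with GFP, 7.21, 7.05 and 7.08 with FXRα1, 7.61, 7.34 and 7.28 with FXRα2, 6.98, 6.93 and 6.68 with FXRα3, and 7.28, 6.97 and 6.84 with FXRα4. FXRα1, FXRα3 and FXRα4 lay below GFP and FXRα2 overlapped it. It changed by -0.64 ± 0.11 (SE, adjusted p = 0.000174) with FXRα3 and -0.47 ± 0.11 (SE, adjusted p = 0.00121) with FXRα4. The FXRα1 change of -0.39 lost its call without FXRα1 replicate 3, GFP replicate 2 or GFP replicate 3 (-0.38 each).

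Slc25a25 read 7.47, 7.52 and 7.42 with GFP, 7.28, 7.03 and 7.32 with FXRα1, 7.51, 7.55 and 7.83 with FXRα2, 6.82, 6.95 and 6.85 with FXRα3, and 7.30, 7.23 and 7.35 with FXRα4. FXRα3 was the lowest group, and FXRα2 overlapped GFP. It changed by -0.60 ± 0.091 (SE, adjusted p = 5.81e-05) with FXRα3, and Slc25a31 and Slc25a41 of this class, both dim, were not called.

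Of the 5 uncoupling proteins and their relatives, Slc25a27 and Slc25a30 fell with some isoforms and the others were not called. Ucp1, the heat-making proton carrier of brown fat, and Ucp3 lay below the array median and were not called. Slc25a27, also called UCP4, read 6.66, 6.71 and 6.73 with GFP, 6.71, 6.42 and 6.65 with FXRα1, 6.08, 6.15 and 6.18 with FXRα2, 6.23, 6.27 and 6.44 with FXRα3, and 6.58, 6.41 and 6.44 with FXRα4. FXRα2 and FXRα3 lay below GFP, FXRα4 just below it, and FXRα1 overlapped it. It changed by -0.56 ± 0.094 (SE, adjusted p = 4.83e-05) with FXRα2 and -0.39 ± 0.094 (SE, adjusted p = 0.00576) with FXRα3. Slc25a30 changed by -0.43 ± 0.058 (SE, adjusted p = 1.29e-05) with FXRα3. Its falls of 0.20 with FXRα1 and 0.17 with FXRα4 lost their calls without GFP replicate 1 (-0.18 and -0.15) or 3 (-0.20 and -0.16), and without FXRα1 replicate 1 (-0.16) or FXRα4 replicate 3 (-0.14). Slc25a14 was not called.

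Slc25a20 exchanges carnitine for acylcarnitine and so admits long-chain fatty acids to oxidation. Slc25a20 read 8.63, 8.66 and 8.57 with GFP, 8.59, 8.56 and 8.67 with FXRα1, 8.80, 8.79 and 8.85 with FXRα2, 8.73, 8.63 and 8.76 with FXRα3, and 8.58, 8.67 and 8.61 with FXRα4. The FXRα2 arrays were the highest and the other isoforms overlapped GFP. It rose by 0.19 ± 0.056 (SE, adjusted p = 0.0106) with FXRα2, a call lost without GFP replicate 3 (0.16), and centring on the median gene turned the value to -0.031.

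Slc25a17, the peroxisomal carrier of CoA, FAD and NAD, read 10.88, 10.93 and 10.88 with GFP, 11.18, 11.34 and 11.24 with FXRα1, 11.28, 11.28 and 11.35 with FXRα2, 11.16, 11.22 and 11.18 with FXRα3, and 11.64, 11.70 and 11.68 with FXRα4. Every isoform array lay above GFP, with FXRα4 apart at the top. It rose by 0.78 ± 0.041 (SE, adjusted p = 1.82e-12) with FXRα4, 0.41 ± 0.041 (SE, adjusted p = 4.03e-08) with FXRα2, 0.36 ± 0.041 (SE, adjusted p = 1.54e-06) with FXRα1 and 0.29 ± 0.041 (SE, adjusted p = 2.48e-05) with FXRα3.

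Slc25a32 carries folate and FAD. Slc25a32 read 8.99, 8.93 and 8.98 with GFP, 9.03, 9.04 and 9.04 with FXRα1, 8.41, 8.47 and 8.32 with FXRα2, 8.66, 8.63 and 8.67 with FXRα3, and 8.43, 8.49 and 8.38 with FXRα4. FXRα2 and FXRα4 were lowest and overlapped each other, FXRα3 lay between them and GFP, and FXRα1 just above GFP. It changed by -0.57 ± 0.054 (SE, adjusted p = 2.03e-08) with FXRα2, -0.53 ± 0.054 (SE, adjusted p = 5.2e-08) with FXRα4 and -0.31 ± 0.054 (SE, adjusted p = 0.000259) with FXRα3.

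Slc25a36, a pyrimidine nucleotide carrier, read 7.75, 7.59 and 7.67 with GFP, 8.65, 8.58 and 8.94 with FXRα1, 7.88, 7.74 and 8.11 with FXRα2, 8.61, 8.46 and 8.88 with FXRα3, and 8.52, 8.42 and 8.65 with FXRα4. FXRα1, FXRα3 and FXRα4 stood above GFP, and FXRα2 overlapped it. It rose by 1.06 ± 0.11 (SE, adjusted p = 2.19e-07) with FXRα1, or 2.08-fold, 0.98 ± 0.11 (SE, adjusted p = 6.8e-07) with FXRα3 and 0.86 ± 0.11 (SE, adjusted p = 8.84e-07) with FXRα4. Its second probe set moved in the same direction. Slc25a33, the other pyrimidine nucleotide carrier, rose by 0.25 (adjusted p = 0.00229) with FXRα2, a call lost with centring on the median gene (0.033). Its rise of 0.20 with FXRα3 lost its call when any FXRα3 replicate or GFP replicate 2 or 3 was left out (0.18 to 0.22), and that of 0.19 with FXRα4 without FXRα4 replicate 2 or 3 or GFP replicate 2 or 3 (0.16 to 0.17). With FXRα4 centring on the median gene turned it to -0.017.

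Slc25a42, a CoA carrier, read 7.20, 7.21 and 7.22 with GFP, 6.94, 7.05 and 7.30 with FXRα1, 7.15, 6.97 and 7.13 with FXRα2, 7.004, 6.95 and 7.09 with FXRα3, and 7.32, 7.20 and 7.34 with FXRα4. FXRα1 and FXRα4 overlapped GFP, and FXRα2 and FXRα3 lay below it without passing the test (-0.13, adjusted p = 0.296, and -0.20, adjusted p = 0.174). Slc25a16 changed by -0.33 (adjusted p = 3.49e-05) with FXRα2 and -0.24 (adjusted p = 0.0011) with FXRα4. Slc25a26, which brings S-adenosylmethionine into the matrix, and Slc25a51, the NAD carrier, were not called with any isoform.

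Slc25a37, or mitoferrin-1, brings iron into the matrix. Slc25a37 read 9.67, 9.62 and 9.61 with GFP, 9.49, 9.57 and 9.47 with FXRα1, 9.68, 9.59 and 9.58 with FXRα2, 9.65, 9.78 and 9.66 with FXRα3, and 8.84, 9.09 and 8.90 with FXRα4. The FXRα4 arrays stood apart below all others, FXRα2 and FXRα3 overlapped GFP, and FXRα1 lay just below GFP. It changed by -0.69 ± 0.060 (SE, adjusted p = 5.16e-09) with FXRα4, beside -0.018 (adjusted p = 0.859) with FXRα2.

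Slc25a28, or mitoferrin-2, moved the other way. Slc25a28 read 8.50, 8.53 and 8.54 with GFP, 8.70, 8.58 and 8.77 with FXRα1, 8.63, 8.58 and 8.58 with FXRα2, 8.69, 8.66 and 8.63 with FXRα3, and 8.96, 8.81 and 8.84 with FXRα4. The FXRα4 arrays were the highest and every isoform array lay above GFP. It rose by 0.35 ± 0.059 (SE, adjusted p = 4.94e-05) with FXRα4, and the changes with the other isoforms were not called.

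Slc25a40, a glutathione carrier, read 6.23, 6.47 and 6.38 with GFP, 6.53, 6.63 and 6.67 with FXRα1, 5.87, 5.75 and 5.80 with FXRα2, 6.43, 6.55 and 6.36 with FXRα3, and 5.52, 5.69 and 5.75 with FXRα4. FXRα2 and FXRα4 lay below GFP, FXRα1 above it and FXRα3 overlapped it. It changed by -0.55 ± 0.097 (SE, adjusted p = 8.87e-05) with FXRα2 and -0.70 ± 0.097 (SE, adjusted p = 3.82e-06) with FXRα4, and its second probe set moved in the same direction. Slc25a39, the other glutathione carrier, rose by 0.18 (adjusted p = 0.000407) with FXRα2 and 0.13 (adjusted p = 0.00992) with FXRα4, the latter call lost without GFP replicate 1 (0.094). Both directions turned with centring on the median gene, to -0.036 and -0.084. Of the outer membrane homologues, Mtch1 changed by -0.21 (adjusted p = 0.00147) with FXRα2, and Mtch2, which inserts proteins into that membrane, was not called against GFP.

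The effect of the insert was read by setting FXRα2 together with FXRα4 against FXRα1 together with FXRα3. The GFP arrays enter neither mean and served only the shared estimate of spread. Of the 50 carriers 12 rose and 12 fell without the insert, 48% beside 38.2% of all genes (18.3% rose and 19.9% fell). Among the 9410 brighter genes the shares were 55.3% of 38 carriers and 62.7% of all. Slc25a35 rose most, by 2.60 ± 0.087 (SE, adjusted p = 7.2e-16), followed by Slc25a18 (0.82 ± 0.11 SE, adjusted p = 2.91e-06), Slc25a29 (0.58 ± 0.096 SE, adjusted p = 3.72e-05) and Slc25a47 (0.54 ± 0.090 SE, adjusted p = 3.13e-05). Slc25a40 fell most (-0.80 ± 0.069 SE, adjusted p = 2.76e-09), followed by Slc25a36 (-0.47 ± 0.075 SE, adjusted p = 2.38e-05) and Slc25a4 (-0.45 ± 0.056 SE, adjusted p = 7.7e-07). Adding 16 to the linear values lowered the value of the dim Slc25a29 to 0.37. Centring on the median gene gave 9 rises and 28 falls among the carriers, beside 2041 rises and 10285 falls over all genes.

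Among carriers called for the length of the N-terminus, most were lower with the longer form. The comparison averages the pairs with and without the insert, and FXRα3 against FXRα1 was not tested alone. Against FXRα1 and FXRα2, the mean of FXRα3 and FXRα4 was higher for 5 carriers and lower for 19, 48% of the family beside 20.1% of all genes, and lower for 38% beside 11.8% of all genes. The median difference was -0.074 over the carriers and 0.0064 over all genes. Among the 9410 brighter genes 60.5% of the carriers and 38.1% of all genes were called. Falls included 6 of 9 amino acid carriers and 3 of 4 di- and tricarboxylate carriers. Among them Slc25a15 (-0.15, adjusted p = 0.0368) lost its call without replicate 1 or 3 of FXRα1 or FXRα2, replicate 1 or 2 of FXRα3 or replicate 2 or 3 of FXRα4 (-0.149 to -0.125), and with centring on the median gene (-0.11). Slc25a11 (-0.12, adjusted p = 0.00677) lost it with that centring (-0.085). Slc25a47 fell most (-1.43 ± 0.090 SE, adjusted p = 1.38e-10), then Slc25a10 (-0.54 ± 0.056 SE, adjusted p = 2.49e-07), Slc25a22 (-0.53 ± 0.066 SE, adjusted p = 2.9e-06) and Slc25a43 (-0.51 ± 0.068 SE, adjusted p = 6.4e-06). With FXRα1 and FXRα3 the means were 7.36 and 6.55 for Slc25a47 and 8.08 and 8.01 for Slc25a10. They were 7.29 and 6.98 for Slc25a22 and 6.69 and 6.52 for Slc25a43. With FXRα2 and FXRα4 they were 8.53 and 6.475, 8.95 and 7.95, 7.31 and 6.57, and 6.625 and 5.77 in that order. Arrays of FXRα1 and FXRα3 overlapped for Slc25a10 and Slc25a43 and not for Slc25a47 and Slc25a22. Slc25a4 (0.36 ± 0.056 SE, adjusted p = 6.01e-05) and Slc25a36 (0.27 ± 0.075 SE, adjusted p = 0.0119) rose. The second probe set of Slc25a36 was not called here (0.195, adjusted p = 0.163 in a limma fit of every probe set).

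FXRα4 against FXRα2 compares both N-termini without the insert. Here 8 carriers were higher with FXRα4 and 20 were lower, 56% of the family beside 23.7% of all genes. Among the 9410 brighter genes the shares were 65.8% and 43.3%. The di- and tricarboxylate carriers Slc25a10 (-1.002, adjusted p = 3.45e-09), Slc25a21 (-0.71, adjusted p = 3.59e-06) and Slc25a11 (-0.25, adjusted p = 0.000182) were lower, and Slc25a1 did not pass the test (0.012, adjusted p = 0.881). Of 9 amino acid carriers 7 were lower, beside 12% of all genes, among them Slc25a22 (-0.75, adjusted p = 2.49e-06) and Slc25a13 (-0.54, adjusted p = 5.49e-07), and Slc25a18 was higher (0.48). Slc25a21 read -0.42 here with 16 added to the linear values. Of the 7, Slc25a29 lost its call without FXRα2 replicate 2 or 3 or FXRα4 replicate 1 (-0.42 to -0.32) and Slc25a15 without FXRα2 replicate 1 or 3 or FXRα4 replicate 2 or 3 (-0.22 to -0.17). Slc25a38 lost it without GFP replicate 2, FXRα2 replicate 2 or 3, or any FXRα3 or FXRα4 replicate (-0.21 to -0.16). The Slc25a18 call was lost without FXRα2 replicate 1 (0.37) or FXRα4 replicate 2 (0.51) or 3 (0.29). The widest gap was that of Slc25a47, -2.06 ± 0.13 (SE, adjusted p = 1.09e-10). Slc25a37 (-0.67, adjusted p = 2.62e-08) and Slc25a43 (-0.86, adjusted p = 5.57e-07) were lower too, while Slc25a36 (0.62, adjusted p = 0.000147), Slc25a24 (0.39, adjusted p = 7.68e-06) and Slc25a17 (0.37, adjusted p = 5.1e-07) were higher.

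The interaction term asks whether removing the insert has the same effect with the longer N-terminus as with the shorter one, as the difference of FXRα4 minus FXRα3 from FXRα2 minus FXRα1. It was called for 15 carriers, 6 above 0 and 9 below, 30% of the family beside 12.9% of all genes (7.24% above 0 and 5.63% below). Among the 9410 brighter genes the shares were 42.1% and 25.9%. For Slc25a47 the insert-lacking isoform differed from its partner by 1.17 on the shorter N-terminus and by -0.079 on the longer one, an interaction of -1.25 ± 0.18 (SE, adjusted p = 5.65e-05). For Slc25a10 these differences were 0.87 and -0.061, an interaction of -0.93 ± 0.11 (SE, adjusted p = 6.15e-06). Slc25a37 showed 0.10 and -0.75, an interaction of -0.86 ± 0.085 (SE, adjusted p = 7.38e-07). Positive terms included Slc25a36 (0.69 ± 0.15 SE, adjusted p = 0.00338), Slc25a27 (0.62 ± 0.13 SE, adjusted p = 0.00305), Slc25a24 (0.49 ± 0.074 SE, adjusted p = 9.04e-05) and Slc25a17 (0.44 ± 0.058 SE, adjusted p = 2.12e-05). For Slc25a35 the term was not called (-0.48, adjusted p = 0.0753).

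**Figure D4:**
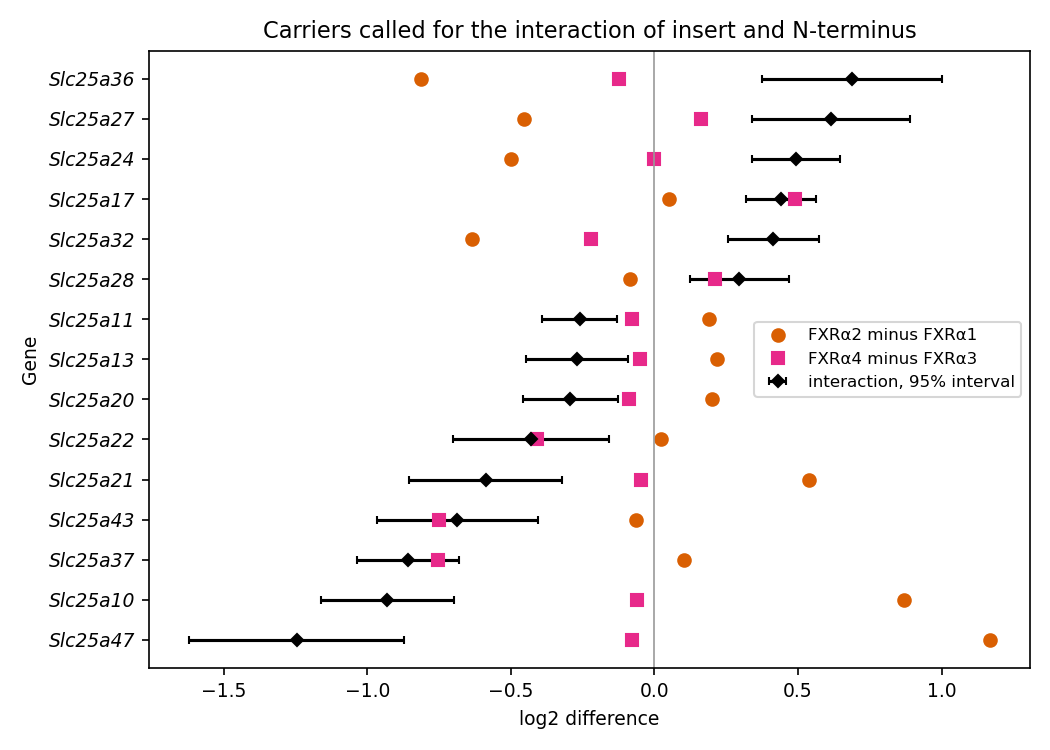
For the 15 carriers called for the interaction, circles give FXRα2 minus FXRα1 and squares FXRα4 minus FXRα3 in log2 units, and diamonds give the interaction with its 95% interval. The intervals lie on 1 side of 0 because only carriers called for this term are drawn. Slc25a47 is lowest at -1.25 and Slc25a36 highest at 0.69.

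Genes that work beside the carriers were counted from lists, beside 38.2% of all genes called for the insert, 34.3% with FXRα2 and 33.8% with FXRα4. Among the 9410 brighter genes these shares were 62.7%, 59.1% and 58.2%, and the lists were not limited to those genes. Centring on the median gene lowers every value in these lists by 0.14 for the insert, 0.22 with FXRα2 and 0.21 with FXRα4. Over all genes that centring gave 2041 rises and 10285 falls for the insert. It gave 1889 rises and 11273 falls with FXRα2, and 1927 rises and 9860 falls with FXRα4. Of 15 measured import genes, whose TOM and TIM22 complexes bring carriers into mitochondria, 1 rose and 9 fell without the insert (66.7%), with a list median of -0.23 beside -0.031 over all genes. Timm9, a chaperone between the membranes, changed by -0.98 ± 0.068 (SE, adjusted p = 9.14e-11), Tomm5 by -0.62 ± 0.051 (SE, adjusted p = 1.31e-09) and Tomm40, the import pore, by 0.27 ± 0.032 (SE, adjusted p = 3.82e-07). Of 14 inner membrane transporters outside the family, 4 rose and 2 fell, 42.9% and near the share of all genes, with Micu3 at -0.51 (adjusted p = 2.98e-05), Sfxn3 at 0.43 (adjusted p = 6.53e-05) and Abcb8 at 0.28 (adjusted p = 0.000239). The 3 outer membrane channels gave 1 rise and 1 fall, with Vdac1 at 0.082 (adjusted p = 0.0194) and Vdac2 at -0.43 (adjusted p = 8.77e-10). With centring on the median gene Vdac1 turned to -0.063, and the transporters outside the family gave 2 rises and 10 falls.

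Urea cycle enzymes, partners of Slc25a15 and Slc25a13, rose for 4 of 6 measured genes with FXRα2 and for 4 with FXRα4 (66.7% each), or for 2 in each with centring on the median gene, beside 1 fall with FXRα2 and 2 with FXRα4. Nags, which makes the activator of the cycle's entry enzyme, rose by 1.12 ± 0.066 (SE, adjusted p = 7.74e-12) with FXRα2 and 0.30 ± 0.066 (SE, adjusted p = 0.00101) with FXRα4, the latter lowered to 0.085 and not called with that centring, and Asl by 0.86 ± 0.057 (SE, adjusted p = 4.39e-11) and 0.64 ± 0.057 (SE, adjusted p = 5.29e-09). Of 9 enzymes of citrate and dicarboxylate metabolism, 5 rose with FXRα2 (55.6%), and 3 rose and 3 fell with FXRα4 (66.7%). That centring gave 2 rises and 3 falls with FXRα2 and 1 rise and 5 falls with FXRα4. Cs, citrate synthase, gave 0.13 (adjusted p = 0.0292) with FXRα2 and -0.32 (adjusted p = 8.54e-06) with FXRα4, and the FXRα2 value turned to -0.088 with that centring. Of 6 carnitine shuttle enzymes, partners of Slc25a20, 4 rose and 1 fell with FXRα2 (83.3%), and 2 rose and 2 fell with FXRα4 (66.7%). The centred values gave 1 rise and 1 fall with FXRα2 and 1 rise and 3 falls with FXRα4. Cpt1a, the entry enzyme of fatty acid oxidation, rose by 0.24 (adjusted p = 0.000448) with FXRα2 and changed by -0.60 (adjusted p = 1.7e-09) with FXRα4, and the FXRα2 rise shrank to 0.019 and lost its call with that centring. Crat, carnitine acetyltransferase, changed by -0.81 (adjusted p = 5.67e-10) and -1.04 (adjusted p = 1.27e-11).

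Without the insert, 1 of 9 haem and iron-sulphur genes rose and 5 fell (66.7%), with Isca2 at -0.61 (adjusted p = 3.74e-10) and Isca1 at -0.43 (adjusted p = 1.3e-08). Of 8 genes of cofactor synthesis 4 rose and 4 fell (all 8 called), with Nmnat3 at -0.82 (adjusted p = 4.46e-09) and Coasy, the last enzyme of CoA synthesis, at 0.48 (adjusted p = 5.31e-09). Of 10 regulators of mitochondrial biogenesis 4 rose and 4 fell (80%), with Gabpa at 0.41 (adjusted p = 1.89e-08), Ppara at 0.34 (adjusted p = 0.000108) and Ppargc1a at 0.44 (adjusted p = 0.000172). Of 4 malate-aspartate shuttle enzymes 2 fell (50%), with Mdh1 at -0.12 (adjusted p = 0.0194) and Got2 at -0.074 (adjusted p = 0.0224).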

How the data were processed

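Expression was measured on 15 Affymetrix arrays. The authors deposited log2 values per probe set in 1 table. Base 2 is an inference from values of 1.93 to 13.8. The submitters' processing notes name Affymetrix Expression Console 1.1 and PLIER with no role, and how arrays were background-corrected or normalized is not given in the sources used here. Of 35556 probe sets, 21218 had 1 gene symbol, 1881 several and 12457 none. Per gene the probe set with the highest mean was kept, with no filter on dim genes. The files give no detection calls, and the number of arrays limits precision.

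limma 3.58.1 (R 4.3.3, eBayes with a variance trend) fitted 5 group means over the 15 arrays and 8 contrasts with Benjamini-Hochberg adjustment over 18820 genes, and the fit was tested on simulated data. Members, classes and lists were chosen with earlier results of these data known. Any carrier could be named. Array values are given for carriers called at a log2 change of 0.5 or more against GFP or for the interaction, and for Slc25a20, Slc25a13, Slc25a15, Slc25a1, Slc25a10, Slc25a4, Slc25a5, Slc25a25, Slc25a47, Slc25a42 and Slc25a37. From each related list up to 3 genes with the smallest adjusted p for the insert were named. Alternatives were other scalings, variance models, filters, a pseudocount, a fold minimum, a replicate block and single arrays left out. Promoter windows came from RefSeq GRCm38.p6 and were searched with Python 3.11.15.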

Additional observations from a re-analysis of the deposited data

Results flagged for a closer look

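For 15 carriers the effect of lacking the insert differed between the shorter and the longer N-terminus by the interaction term itself (limma, two-sided, Benjamini-Hochberg adjusted over all genes). The term was below 0, meaning a smaller or more negative effect with the longer N-terminus, for Slc25a37 (-0.86, adjusted p = 7.38e-07), Slc25a10 (-0.93, adjusted p = 6.15e-06), Slc25a47 (-1.25, adjusted p = 5.65e-05), Slc25a43 (-0.69, adjusted p = 0.00136) and Slc25a21 (-0.59, adjusted p = 0.00316). It was also below 0 for Slc25a11 (-0.26, adjusted p = 0.00742), Slc25a20 (-0.29, adjusted p = 0.0161), Slc25a22 (-0.43, adjusted p = 0.0324) and Slc25a13 (-0.27, adjusted p = 0.0397). It was above 0 for Slc25a17 (0.44, adjusted p = 2.12e-05), Slc25a24 (0.49, adjusted p = 9.04e-05), Slc25a32 (0.41, adjusted p = 0.000804), Slc25a27 (0.62, adjusted p = 0.00305), Slc25a36 (0.69, adjusted p = 0.00338) and Slc25a28 (0.30, adjusted p = 0.02). The call for Slc25a13 was lost when any of 11 arrays was left out (-0.29 to -0.22), namely all but FXRα1 replicate 3, FXRα4 replicates 1 and 3 and GFP replicate 1. That for Slc25a22 was lost without FXRα1 replicate 1 or 2, FXRα2 replicate 2, FXRα3 replicate 1 or 2, or FXRα4 replicate 3 (-0.43 to -0.36), and that for Slc25a28 without FXRα4 replicate 1 (0.25). Slc25a21, a dim gene, read -0.35 with 16 added to the linear values. Each group holds 3 arrays, so no search for single outlying arrays was made.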

How the results depend on the processing

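Of 168 called member changes, 46 lost their call or turned in at least 1 alternative fit other than the fold minimum. Leaving out single arrays lost 130 of 2520 values and turned 0. The count of carriers called then ran from 9 to 14 with FXRα1, 24 to 27 with FXRα2, 14 to 19 with FXRα3, 20 to 25 with FXRα4, 23 to 26 for the insert, 21 to 24 for the N-terminus, 21 to 29 for FXRα4 against FXRα2 and 13 to 16 for the interaction.

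A fold minimum kept only calls with an estimated change of at least 1.5-fold, while the test itself stayed against no change. It left 3, 6, 4 and 7 carriers with FXRα1, FXRα2, FXRα3 and FXRα4. It left 3 for the insert, 1 for the N-terminus, 8 for FXRα4 against FXRα2 and 7 for the interaction. The last 3 of these stand without counts over all genes, so nothing about the family is read from them. Over all genes it left 337, 1243, 273 and 1197 rises with FXRα1 to FXRα4 and 814 for the insert. The falls left were 98, 476, 163 and 602 with FXRα1 to FXRα4 and 351 for the insert. Centring on the median gene, chosen after seeing the data, gave 39 with FXRα4 and 37 for the insert. Over all genes it gave 1927 rises and 9860 falls with FXRα4, and 2041 rises and 10285 falls for the insert. It turned Slc25a1 to -0.0482 with FXRα2, -0.0272 with FXRα4 and -0.0324 for the insert, Slc25a20 to -0.0313 with FXRα2, Slc25a39 to -0.0362 with FXRα2 and -0.0838 with FXRα4, and Slc25a33 to -0.0173 with FXRα4. It subtracts the difference between array medians over genes, so every value of a comparison moves by the same amount. The median change over all genes moved further below no change, from -0.048 to -0.269 with FXRα2. That median moved from -0.027 to -0.239 with FXRα4 and from -0.031 to -0.176 for the insert. The remaining counts of called carriers stayed within 1.5 times the reported ones.

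The replicate numbers carry no stated meaning. Arrays of 1 number correlated in their deviations from group means at r = -0.21 to 0.43, with 18 of 30 pairs over 0.1, and 11 of 15 arrays correlated best with their own number, a hint from the data and not the design. With the replicate block 15, 28, 19 and 27 carriers were called with FXRα1, FXRα2, FXRα3 and FXRα4. The block gave 26 for the insert, 25 for the N-terminus, 29 for FXRα4 against FXRα2 and 19 for the interaction. These stand without counts over all genes, so nothing about the family is read from them. Against GFP, calls over all genes grew too, with 2046, 3594, 1742 and 3734 rises with FXRα1 to FXRα4. The falls over all genes were 1026, 3539, 1607 and 3328 in that order. Of 50 carriers, 10 lie below the array median, where real changes can appear smaller, which was not tested here.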
